A study of Mus musculus with 13 samples.

Results

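Heat shock proteins and cochaperones form a set of 36 genes taken from a list of names, covering the HSP70, HSP110 and HSP90 chaperones, the mitochondrial chaperonin, small heat shock proteins, J-domain, BAG and HSP90 cochaperones, and 2 heat shock factors. Genes were taken from the deposited expression table by symbol, and kept where they averaged 1 FPKM or more across the 13 libraries. All 36 listed genes were found and passed, of 37636 gene IDs in the table and 13905 that reached that mean. FPKM is a fragment count corrected for gene length and for the depth of the library, so levels can be set side by side between genes. The set was put together as cytosolic chaperones, but that holds for 29 of the 36. Hspa9, Hspd1, Hspe1 and Trap1 encode proteins of mitochondria, Hspa13 a protein of the endoplasmic reticulum, and Hsf1 and Hsf2 transcription factors.

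RNA came from the brain of male Balb/c mice of 6 to 8 weeks, with no brain region named in the labels. Con is the normal condition without 6-OHG, with 4 libraries. Mod is 24 h at 8000 m without 6-OHG, with 5 libraries, and 6-OHG is 24 h at 8000 m with 6-OHG, with 4 libraries. 6-OHG is an agent known here only by that code, with no dose or route. The labels name no genotype or transgene, and do not say how the altitude was produced. They also leave out whether each library is a mouse of its own. Where libraries share a mouse, the spread behind a p-value is that between samples and may be technical.

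Chaperones keep proteins folded and soluble. HSP70 grips exposed stretches of a client protein, J-domain proteins bring it clients and start its ATP cycle, and HSP110 and BAG proteins end the cycle by exchanging the nucleotide. HSP90 finishes the folding of kinases, steroid receptors and other clients with the help of cochaperones, while small heat shock proteins hold unfolded proteins until HSP70 takes them over. The chaperonin of Hspd1 and Hspe1 folds proteins inside mitochondria. When unfolded proteins build up, the transcription factor HSF1 binds heat shock elements in promoters and raises inducible members such as Hspa1a, Hspa1b, Dnajb1 and Hspb1, whereas Hspa8 and Hsp90ab1 are made in large amounts in unstressed neurons and glia.

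Library facts that touch these genes are few. The FPKM columns summed to 268208 to 312908, and genes encoded in mitochondria held 20.6% to 28.7% of that sum. Taken over genes, which do not replicate a condition, the median correlation of a library's log2 values with the other libraries of its group was 0.966 for 6-OHG replicate 2, 0.969 for Con replicate 4 and 0.978 to 0.988 for the other 11. Summed markers of striatum, a part of the forebrain, were 59.9 FPKM in 6-OHG replicate 2 and 248 FPKM in Con replicate 4, each the lowest of its group. Liver markers stood apart by group. Albumin RNA (Alb) was at 14.3 to 18.9 FPKM in Con and at 0.113 FPKM or less in 6-OHG, while Mod replicate 3, at 14.4 FPKM, lay with Con and the other 4 Mod libraries were at 0.195 FPKM or less. Of 5 liver markers tested, 4 were lower in each comparison with Con, and of 7 striatal markers limma called 0 in any comparison (0 at an unadjusted p under 0.05). The median change of the striatal markers was -0.42 in Mod against Con, -0.44 in 6-OHG against Mod and -0.82 in 6-OHG against Con. Their sums ran from 248 to 442 FPKM in Con, 102 to 567 in Mod and 59.9 to 454 in 6-OHG. With this spread, 0 calls do not show equal striatal content. The part of these lists in the results was not tested. The 8 neuron markers summed to 845 to 943 FPKM in Con (median 940.0), 785 to 848 in Mod (median 823) and 807 to 924 in 6-OHG (median 824), with none at 0. Of these Tubb3 fell in Mod against Con (-0.65, adjusted p = 0.00237) and in 6-OHG against Con (-0.90, adjusted p = 0.00033), and the other 7 were not called in either. The part of neuron content in the results, such as that of the neuronal gene Dnajb2, was not tested.

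The 36 genes together took 1593 to 1735 FPKM in Con, 1430 to 1559 FPKM in Mod and 1369 to 1561 FPKM in 6-OHG. As a share of each library's FPKM that is 0.562% to 0.641%, 0.457% to 0.525% and 0.492% to 0.572%. Hsp90ab1, Hsp90aa1 and Hspa8 made up 55.1% to 59.3% of the summed level in every library.

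Each change is the mean log2(FPKM + 1) of the first group minus that of the second, which shrinks the fold of weakly expressed genes. Levels are given as the mean FPKM of a group ± SD (n = 4 Con, 5 Mod and 4 6-OHG). A gene is called, or said to have risen or fallen, where limma's adjusted p, by the method of Benjamini and Hochberg over the 13905 genes, was under 0.05. Mod against Con asks what altitude changed, 6-OHG against Mod what differed with the agent at altitude, and 6-OHG against Con how treated animals at altitude differed from the normal condition. The comparisons share libraries in pairs, so their values for a gene are set side by side and not counted as separate support.

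In Mod against Con, 12 members fell and 2 rose. The falls took in the constitutive HSP70 gene Hspa8, its HSP110 partners Hspa4, Hspa4l and Hsph1, the small heat shock protein gene Cryab, the HSP90 cochaperone genes Chordc1 and Ahsa1, the J-domain gene Dnajb2, Hsf1, Hspa12a, Hspd1 and Trap1. Hspa2 and Hspb6 rose. Called lower were 33.3% of members against 9.81% of all genes tested, and called higher 5.56% against 14%, with 38.9% against 23.8% called in either direction. The median member change was -0.17, against 0.01 over all genes tested. Every Mod library lay below every Con library for 11 members, where 8.87% of all genes did so, and above every Con library for 3, where 13.5% did. The count of 2 rises was 1 without Con replicate 3 or 4 or Mod replicate 1, 3 or 5. Rescaling the libraries to equal FPKM sums turned the split of all called genes from 1940 higher and 1364 lower to 1095 and 1603, and that of members to 1 and 14.

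In 6-OHG against Mod, 4 members changed. Cryab, Hspe1 and Bag1 fell and Hspa12a rose, which is 11.1% of members against 15.3% of all genes, a share near the background. Called lower were 8.33% of members against 8.35% of genes, and called higher 2.78% against 6.98%. The median member change was -0.03, against -0.02 over all genes, and 5 members had groups that did not overlap, 3 of them lower (8.34% of all genes) and 2 higher (7.6%). No rise was called by limma without Mod replicate 2, 3 or 5 or 6-OHG replicate 1 or 4, and the count of falls was 1 without Mod replicate 2 or 5 or 6-OHG replicate 1. At equal FPKM sums 3 members were higher and 2 lower, and over all genes 1385 and 398, against 970 and 1161 as deposited.

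In 6-OHG against Con, 13 members fell and 3 rose. Called lower were 36.1% of members against 14.4% of genes, called higher 8.33% against 16.3%, and called at all 44.4% against 30.7%. The median member change was -0.16, against 0.00 over all genes. The groups did not overlap for 13 members that were lower (12.5% of all genes) and 2 that were higher (15.6%). The count of 3 rises was 1 without Con replicate 1, 6-OHG replicate 1 or 6-OHG replicate 4.

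Hspa8, Hspa4, Hsph1, Cryab, Dnajb2, Chordc1, Ahsa1 and Hsf1 were called lower in both comparisons with Con, and this held under each of the 27 other settings run in which the gene was tested. Without Con replicate 4 and 6-OHG replicate 2, Mod against Con had 13 members that fell and 6-OHG against Con had 15. Another 13 members were called in at least 1 comparison, and 15 in none.

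**Figure D1:**
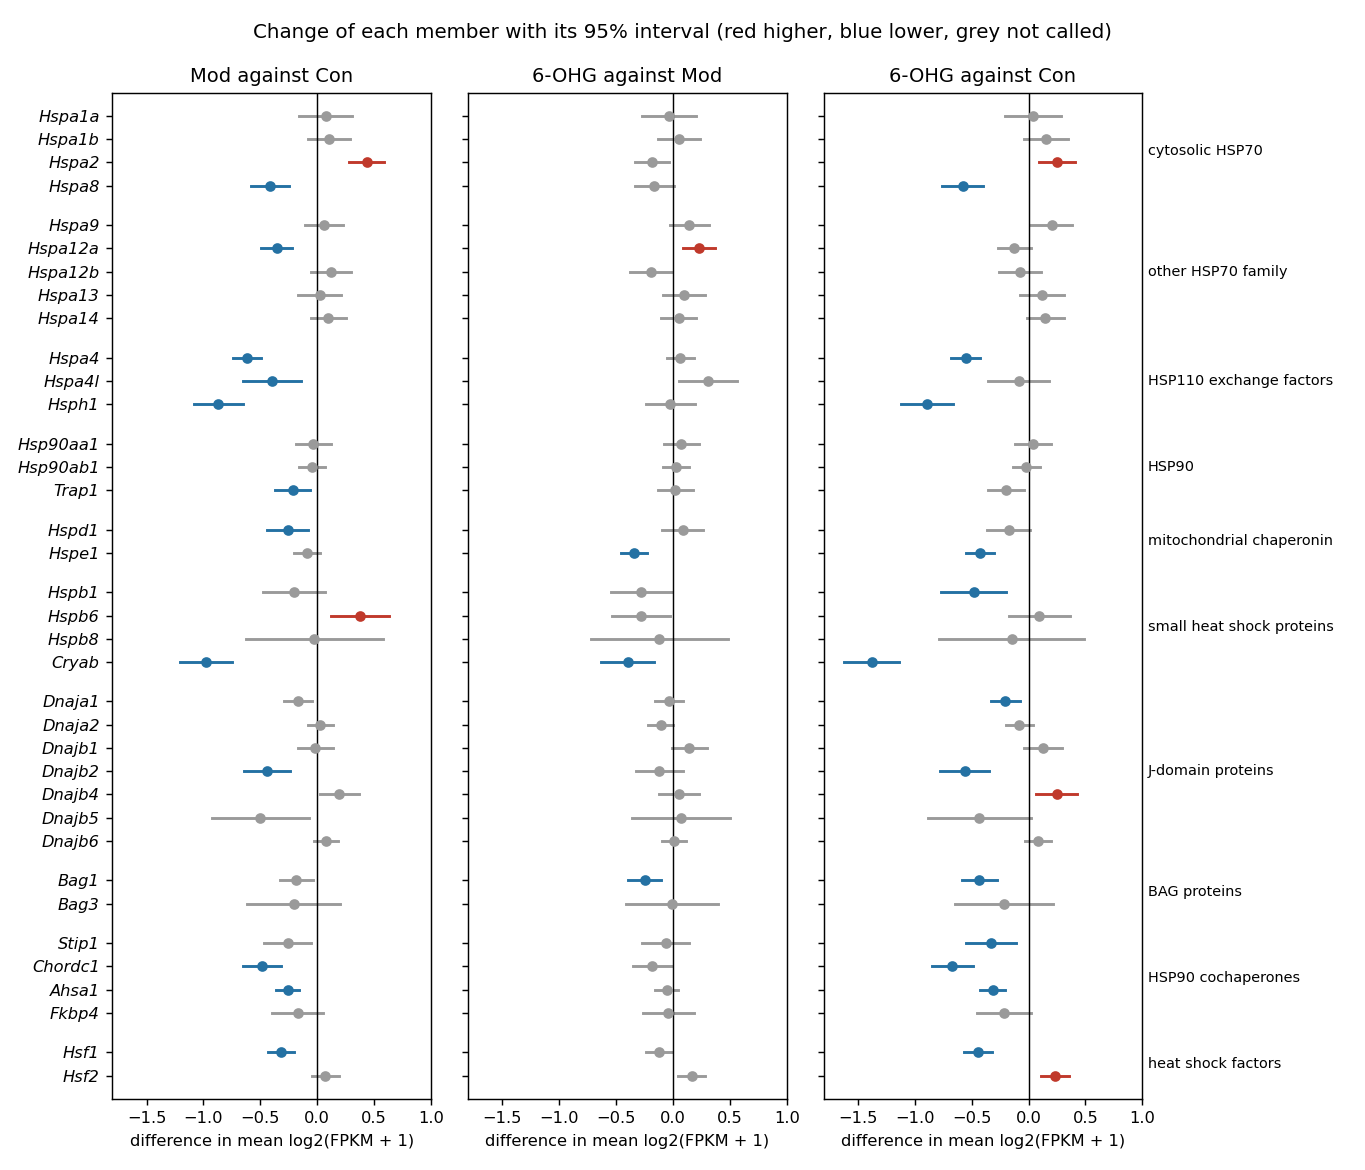
Difference in mean log2(FPKM + 1) for each of the 36 genes in the 3 comparisons, with its 95% interval not adjusted for the number of genes, ordered by role. Points left of 0 are lower in the group named first. The left and right panels hold 12 and 13 blue points, the middle panel 3.

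Because several members of the set are HSF1 targets, the promoters were searched for the heat shock element. RefSeq windows of 300 bases on GRCm38.p6, from 250 before to 50 after each start site, were available for 29 members, with 41 windows, and for 27025 genes in all. The 7 members without a window were Hspa8, Hspa9, Hspa13, Hsp90aa1, Hsp90ab1, Cryab and Hsf1. Their promoters were not searched. The element is made of GAA units in alternating direction. The 3-unit form was searched as GAANNTTCNNGAA and its reverse complement TTCNNGAANNTTC, and the 2-unit form as GAANNTTC or TTCNNGAA, each its own reverse complement, so that both strands were covered and every 3-unit match holds 2-unit matches. The 3-unit form was in 5 of the 29 members, Chordc1, Hspd1, Hspe1, Dnajb6 and Hsph1, and in 0.662% of all genes with a window. The 2-unit form was in 14 of the 29 and in 17.0% of all genes. Dnajb1, an HSF1 target, had 0 matches of either form, and Hspa1a and Hspa1b had the 2-unit form alone. A window without a match therefore does not show that a gene lacks a site for HSF1.

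The stretches with a 3-unit match are shown because they include those of Chordc1 and Hsph1, which fell in both comparisons with Con, and of Dnajb6, which was not called. Capitals mark the matched element and lower case the flanks, each 5′ to 3′ on the strand of the gene. The Chordc1 stretch lies at chr9:18292223-18292285 on the plus strand, that of Hspe1 at chr1:55088039-55088096 on the plus strand, that of Dnajb6 at chr5:29735832-29735884 on the plus strand, and that of Hsph1 at chr5:149636282-149636306 on the minus strand.
Chordc1: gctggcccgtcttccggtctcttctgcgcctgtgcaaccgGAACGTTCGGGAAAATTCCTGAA
Hspe1: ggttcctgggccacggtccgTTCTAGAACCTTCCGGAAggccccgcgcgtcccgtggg
Dnajb6: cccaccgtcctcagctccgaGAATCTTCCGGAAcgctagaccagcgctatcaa
Hsph1: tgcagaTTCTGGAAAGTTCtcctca

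Counted from the start site, the matched bases run from -4 to 19 in Chordc1, where 3 matches overlap. In Dnajb6 they run from -46 to -34, or from -127 to -115 from a second listed start. In Hsph1 they run from 16 to 28, or from 37 to 49 from a second listed start. The element of Hspe1, at -89 to -72, is also in a window of Hspd1, at -144 to -127 from the other side. The start site of that Hspd1 window is 216 bases from that of Hspe1, and the windows share 285 bases. The other listed Hspd1 window, chr1:55088194-55088493 on the minus strand, has 0 matches of either form. Hspe1 fell in 6-OHG against Mod and Hspd1 was not called there, with the same element in a window of each. Of the 5 genes with a 3-unit match, 0 rose and 3 fell in Mod against Con, which were Chordc1, Hsph1 and Hspd1, and 0 rose and 3 fell in 6-OHG against Con, which were Chordc1, Hsph1 and Hspe1. Of the other 24 members with a window, 2 rose and 6 fell, and 3 rose and 7 fell. Over all genes tested 14% rose and 9.81% fell in Mod against Con, and 16.3% rose and 14.4% fell in 6-OHG against Con, and 5 genes are too few to set against these shares. A match describes letters in a window and does not show that a factor binds there.

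Of the 4 cytosolic HSP70 genes, Hspa8 fell and Hspa2 rose at altitude, and Hspa1a and Hspa1b were not called. Hspa8 (ENSMUSG00000015656, chr9:40800984-40810087), which encodes the constitutive HSP70 that also strips clathrin from synaptic vesicles, was at 223, 212, 235 and 239 FPKM in the Con libraries, 165, 161, 180.5, 154 and 192 in Mod and 148, 169, 138 and 154 in 6-OHG. All Mod and 6-OHG libraries lay below all Con libraries, and the ranges of Mod and 6-OHG overlapped. The mean was 25% lower in Mod (log2 change -0.42, SE 0.08, adjusted p = 0.0024) and 33.1% lower in 6-OHG (-0.58, SE 0.08, adjusted p = 0.000325), and 6-OHG against Mod was not called (-0.16, 95% interval -0.33 to 0.01, adjusted p = 0.177). In bulk tissue fewer cells of a type and less RNA per cell cannot be told apart, here and for each gene that follows. Of 150-base stretches of the Hspa8 transcripts, 22.8% also occur in another gene, mostly its pseudogenes, so its count could be split by the counting method.

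Hspa2, the other HSP70 gene with a call, is best known from testis, and it moved the other way. Its levels were 7.46, 7.67, 7.78 and 7.7 FPKM in Con, 11.5, 10.7, 10.3, 10.7 and 10.2 in Mod and 9.55, 8.17, 8.66 and 11 in 6-OHG. Con libraries lay within a narrow band below all libraries of the other groups, and 6-OHG replicate 4 reached the Mod range. Hspa2 rose by 0.43 (SE 0.07, adjusted p = 0.000964) in Mod, and by 0.25 (SE 0.07, adjusted p = 0.0219) in 6-OHG against Con. The latter call was lost without Con replicate 1, 6-OHG replicate 1 or 6-OHG replicate 4, at adjusted p = 0.0537, 0.0536 and 0.0509. Without 6-OHG replicate 4, 6-OHG against Mod was called lower (-0.26, adjusted p = 0.0197), where all libraries gave -0.18 (95% interval -0.34 to -0.03, adjusted p = 0.0958). Hspa8 was 27.6 to 31.0 times the level of Hspa2 in Con, 14.3 to 18.9 times in Mod and 13.97 to 20.63 times in 6-OHG, with no overlap between Con and the altitude groups.

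The stress-inducible HSP70 genes sat near the floor of the tested range. Hspa1a (chr17:34969190-34972156) was at 1.2, 1.73, 1.57 and 2.15 FPKM in Con, 1.87, 1.98, 1.72, 1.53 and 1.81 in Mod and 1.91, 1.96, 1.27 and 1.77 in 6-OHG. Hspa1b (chr17:34956436-34959238) was at 1.47, 1.33, 1.28 and 1.5 FPKM in Con, 1.58, 1.68, 1.38, 1.72 and 1.49 in Mod and 2.04, 1.39, 1.4 and 1.88 in 6-OHG. Neither was called, and the groups overlapped in each comparison for both genes. The intervals for Hspa1a ran from -0.16 to 0.31 in Mod against Con and from -0.21 to 0.28 in 6-OHG against Con, and those for Hspa1b from -0.08 to 0.28 and from -0.04 to 0.35. The genes are near copies. Of their 150-base stretches, 39.7% and 40.5% occur in another gene, and their promoter windows are identical at 98.7% of positions, so how fragments were divided between them is uncertain.

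All 3 exchange factors of the HSP110 family fell in Mod against Con. Hspa4 (ENSMUSG00000020361, chr11:53259814-53300457), an HSP110 gene, was at 41.7, 39.1, 41.3 and 40.8 FPKM in Con, 25.8, 26.2, 27.7, 25.8 and 25.6 in Mod and 26.9, 26.3, 25.9 and 31 in 6-OHG. Its Con and Mod bands were tight and far apart, and 6-OHG replicate 4 was the highest of the altitude libraries. Hspa4 fell by 0.62 (SE 0.06, adjusted p = 1.46e-05) in Mod and by 0.55 (SE 0.06, adjusted p = 5.92e-05) in 6-OHG against Con. Hsph1 (ENSMUSG00000029657, chr5:149614287-149636376), the heat-inducible HSP110 gene with a 3-unit element near its start, was at 40.8, 39.4, 41.1 and 31.9 FPKM in Con, 18.8, 22.3, 23, 19.4 and 18.8 in Mod and 20.8, 16.9, 20.2 and 23 in 6-OHG. Con replicate 4 was the lowest of Con and still above all altitude libraries. Hsph1 fell by 0.87 (SE 0.10, adjusted p = 8.62e-05) in Mod and by 0.89 (SE 0.11, adjusted p = 0.000116) in 6-OHG against Con, while 6-OHG against Mod gave -0.02 (95% interval -0.24 to 0.20, adjusted p = 0.913). Hspa4l, a relative of Hspa4 and Hsph1, was at 18.7 ± 2.66 FPKM in Con, 13.9 ± 1.26 in Mod and 17.7 ± 3.38 in 6-OHG, and fell in Mod against Con (-0.39, SE 0.12, adjusted p = 0.0276) with groups that did not overlap. That call was lost without Con replicate 3 or 4 or Mod replicate 2, 3 or 4, at adjusted p = 0.0507 to 0.0807, and 6-OHG against Con was not called (-0.09, 95% interval -0.35 to 0.18, adjusted p = 0.636).

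Of the 5 more distant HSP70 relatives, Hspa12a was the one called. Hspa12a, which encodes an atypical HSP70 abundant in brain, was at 23.9, 20.8, 24.9 and 22.8 FPKM in Con, 18.4, 17.7, 16.9, 18.5 and 17.4 in Mod and 22.4, 21.3, 18.9 and 21.7 in 6-OHG. Mod lay below all libraries of both other groups, and 6-OHG overlapped Con. It fell in Mod against Con (-0.36, SE 0.06, adjusted p = 0.00178) and was the member that rose in 6-OHG against Mod (0.23, SE 0.06, adjusted p = 0.0282), and 6-OHG against Con was not called (-0.13, 95% interval -0.27 to 0.02, adjusted p = 0.171). The rise was lost without Mod replicate 2, 3 or 5 or 6-OHG replicate 1 or 4, at adjusted p = 0.0566 to 0.0804, and once each library's dependence on exon length and GC was removed (0.13, adjusted p = 0.193). Hspa9, Hspa12b, Hspa13 and Hspa14 were not called in any comparison with all libraries, at mean levels of 46.4, 2.09, 6.52 and 6.05 FPKM in Con. Without 6-OHG replicate 3, Hspa9 was called higher in 6-OHG against Con (0.26, adjusted p = 0.0361) and Hspa12b lower in 6-OHG against Mod (-0.27, adjusted p = 0.0479).

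**Figure D2:**
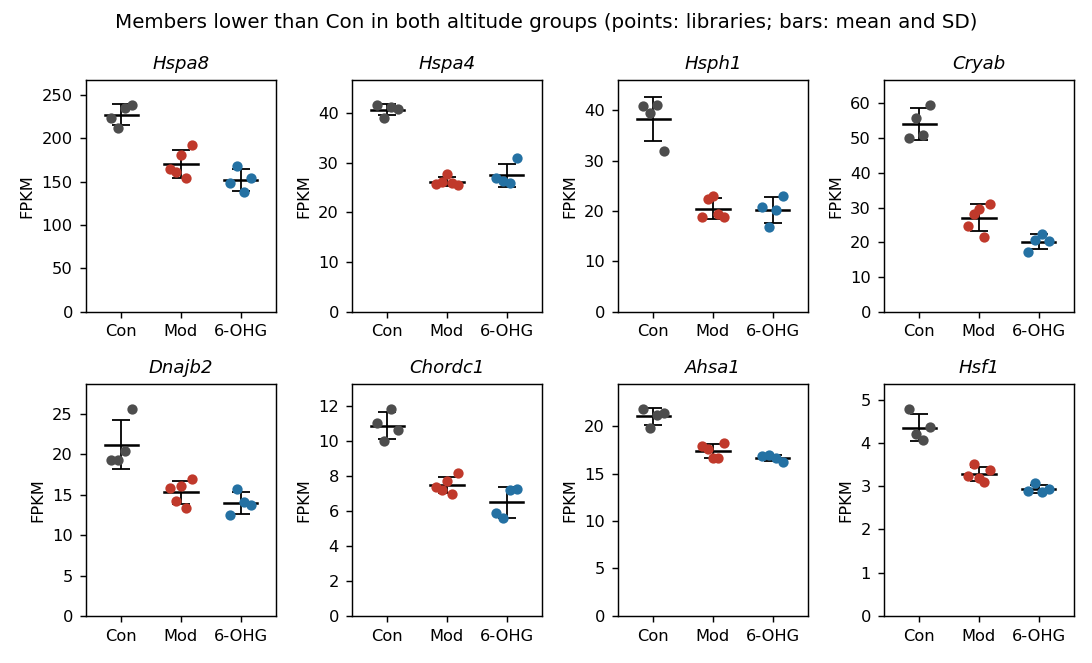
FPKM of the 8 genes called lower than Con in both altitude groups, with 1 point per library and bars for the mean and SD (n = 4 Con, 5 Mod, 4 6-OHG). In each panel the 4 Con points lie above all 9 altitude points, from Hspa8 at 212 FPKM or more in Con to Hsf1 at 4.06 FPKM or more.

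The cytosolic HSP90 genes, the most abundant members, were not called in any comparison of the full fit. Hsp90ab1, the constitutive form, was at 455, 428, 461 and 438 FPKM in Con, 435, 422, 412, 447 and 438 in Mod and 447, 451, 412 and 447 in 6-OHG. Hsp90aa1, the inducible form, was at 259, 243, 275 and 280.0 FPKM in Con, 258, 245, 245, 256 and 286 in Mod and 273, 295, 245 and 274 in 6-OHG. The groups overlapped for both genes in all 3 comparisons. For Hsp90ab1 the changes were -0.05 (95% interval -0.16 to 0.07, adjusted p = 0.558) in Mod against Con and -0.02 (95% interval -0.14 to 0.10, adjusted p = 0.816) in 6-OHG against Con. For Hsp90aa1 they were -0.03 (95% interval -0.19 to 0.12, adjusted p = 0.766) and 0.04 (95% interval -0.12 to 0.20, adjusted p = 0.724). In 6-OHG against Mod, Hsp90ab1 gave 0.03 (95% interval -0.09 to 0.14, adjusted p = 0.772) and Hsp90aa1 0.07 (95% interval -0.08 to 0.22, adjusted p = 0.522). With quantile normalization Hsp90aa1 was called higher there (0.24, adjusted p = 0.0252). These intervals bound the size of any change but do not show that the levels were equal, and 28.5% of the 150-base stretches of Hsp90aa1 also occur in another gene. Relative to Hsp90ab1, Hspa8 stood at 0.491 to 0.545 in Con, 0.344 to 0.44 in Mod and 0.332 to 0.374 in 6-OHG, so that no altitude library reached the Con range. Trap1, the HSP90 of mitochondria, fell from 21.5 ± 1.94 FPKM in Con to 18.3 ± 1.43 in Mod (-0.22, SE 0.07, adjusted p = 0.0386). That call was lost without Con replicate 1 or 4 or Mod replicate 2, 4 or 5, at adjusted p = 0.0578 to 0.097, and 6-OHG against Con was called lower without Mod replicate 5 (-0.20, adjusted p = 0.0334).

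**Figure D3:**
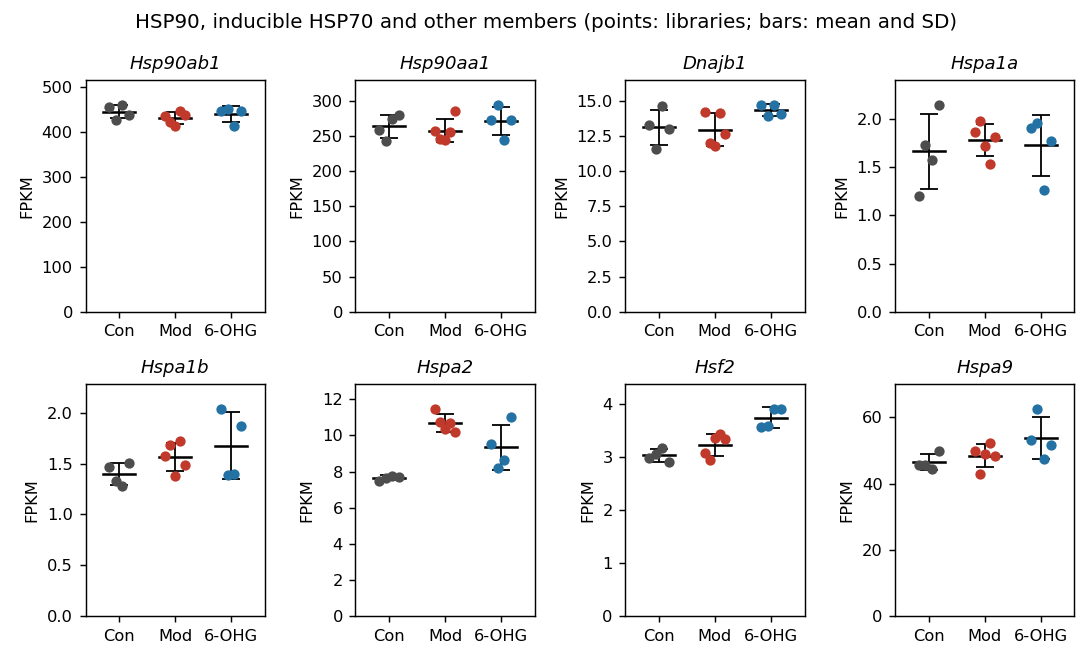
FPKM by library of 8 genes, 6 of them not called in Mod against Con and 6-OHG against Con and the others Hspa2 and Hsf2, with bars for the mean and SD (n = 4, 5 and 4). Hsp90ab1 stays between 412 and 461 FPKM in all 13 libraries, whereas Hspa2 is lowest in Con at 7.46 to 7.78 FPKM.

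Of the 4 HSP90 cochaperones in the set, 2 fell in Mod and 3 in 6-OHG, each against Con. Chordc1 (chr9:18292125-18317442), whose protein binds HSP90 and whose start site lies within its 3-unit elements, was at 11, 10.0, 11.8 and 10.6 FPKM in Con, 7.35, 7.19, 7.7, 6.96 and 8.18 in Mod and 5.86, 5.62, 7.22 and 7.27 in 6-OHG. Ahsa1 (chr12:87266479-87273998), the activator of the HSP90 ATPase, was at 21.8, 19.8, 21.1 and 21.4 FPKM in Con, 17.9, 17.6, 16.7, 16.6 and 18.2 in Mod and 16.9, 16.9, 16.7 and 16.2 in 6-OHG. For both genes the lowest Con library lay above the highest altitude library. Chordc1 fell by 0.49 (SE 0.08, adjusted p = 0.000944) in Mod and by 0.67 (SE 0.08, adjusted p = 0.000144) in 6-OHG against Con, and Ahsa1 by 0.26 (SE 0.05, adjusted p = 0.00195) and by 0.32 (SE 0.05, adjusted p = 0.00061). Stip1, which passes clients from HSP70 to HSP90, was at 76.5 ± 10.4, 63.3 ± 4.18 and 60.7 ± 7.02 FPKM and fell in 6-OHG against Con (-0.33, SE 0.10, adjusted p = 0.0279). That call was lost without Con replicate 3 or 4 or 6-OHG replicate 1, 3 or 4, at adjusted p = 0.0523 to 0.0789. Quantile normalization also lost it (-0.21, adjusted p = 0.122). Fkbp4, the immunophilin of steroid receptor complexes, was at 35.7 ± 3.08, 31.5 ± 2.49 and 30.9 ± 5.68 FPKM with no call in the full fit. Without 6-OHG replicate 2, Fkbp4 was called lower in 6-OHG against Con (-0.33, adjusted p = 0.0106) and Stip1 in Mod against Con (adjusted p = 0.0469). Stip1 was also called lower there without Con replicate 2 (-0.34, adjusted p = 0.0271).

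Among small heat shock proteins Cryab stood apart by size. Cryab (ENSMUSG00000032060, chr9:50751325-50756636) encodes alpha-B crystallin, a holding chaperone that in brain is abundant in oligodendrocytes and astrocytes. Its levels were 49.9, 55.7, 50.8 and 59.7 FPKM in Con, 24.8, 28.2, 29.7, 21.5 and 31.2 in Mod and 17.2, 20.7, 22.5 and 20.4 in 6-OHG. Con stood above all altitude libraries, and Mod and 6-OHG overlapped by 1 library of Mod and 1 of 6-OHG. Cryab fell by 0.98 (SE 0.11, adjusted p = 5.46e-05) in Mod and by 1.38 (SE 0.11, adjusted p = 6.72e-06) in 6-OHG against Con, a mean 62.6% lower. It also fell in 6-OHG against Mod (-0.40, SE 0.11, adjusted p = 0.0248), a call lost without Mod replicate 2, 3 or 5 or 6-OHG replicate 1 or 4 (adjusted p = 0.055 to 0.0737) and with that dependence on length and GC removed (-0.21, adjusted p = 0.237).

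Markers of cells that hold Cryab are set beside it. The 10 markers of myelin and oligodendrocytes summed to 1245 to 1676 FPKM in Con, 845 to 1977 in Mod and 685 to 1259 in 6-OHG. The medians were 1339, 1390 and 1038 FPKM, so that of Mod was above that of Con, where Cryab fell. None of the 10 was called higher. Of the 10, 1 was lower in Mod against Con (9.81% of all genes) and 3 were lower in 6-OHG against Con (14.4%). In 6-OHG against Mod limma called 0 (3 at an unadjusted p under 0.05). Within each group the same library was highest in Cryab and in the myelin sum (replicate 4 of Con, 5 of Mod and 3 of 6-OHG), and the same library lowest in both (replicate 1 of Con, 4 of Mod and 1 of 6-OHG). The 7 astrocyte markers summed to 306 to 345, 263 to 300 and 280 to 343 FPKM, with 2 lower in each comparison with Con. The 6 microglia markers summed to 73.4 to 83.8, 59.5 to 70.4 and 46.8 to 71.3 FPKM, with 1 lower in Mod and 4 in 6-OHG against Con. None of these lists had a marker at 0, and their part in the result was not tested. Of the exon bases of Cryab, 17.0% overlap the neighbouring small heat shock gene Hspb2 on the other strand, and the strand setting of the counting is not given in the sources used here.

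The other small heat shock proteins were at low levels. Hspb1, the inducible member that protects the actin cytoskeleton, was at 4.07, 3.51, 3.68 and 3.84 FPKM in Con, 2.32, 3.1, 4.44, 2.75 and 3.35 in Mod and 2.12, 2.33, 3.11 and 2.19 in 6-OHG. Mod replicate 3 was the highest and 6-OHG replicate 1 the lowest of all 13 libraries, and 6-OHG did not overlap Con. Hspb1 fell in 6-OHG against Con (-0.48, SE 0.13, adjusted p = 0.0149), a call lost with that dependence on length and GC removed (-0.30, adjusted p = 0.109) and without Con replicate 4 and 6-OHG replicate 2 together (adjusted p = 0.0502). A pseudogene shares 39.1% of its 150-base stretches. Hspb6, a small heat shock protein of muscle, was at 1.33 ± 0.261, 2.03 ± 0.384 and 1.49 ± 0.353 FPKM and rose in Mod (0.38, SE 0.12, adjusted p = 0.0343). That call was lost without Con replicate 3 or 4 or Mod replicate 1, 3 or 5 (adjusted p = 0.0603 to 0.108), and on rescaling the libraries to equal sums (adjusted p = 0.0713). Without 6-OHG replicate 2, Hspb6 was called lower in 6-OHG against Mod (-0.38, adjusted p = 0.0396). The 8 markers of smooth muscle and pericytes summed to 34.5 to 48.7 FPKM in Con, 35.8 to 45.0 in Mod and 34.0 to 43.9 in 6-OHG, with none at 0, and of 6 tested 2 rose and 3 fell in each comparison with Con. The 8 endothelial markers summed to 48.3 to 61.7, 63.4 to 76.2 and 57.3 to 81.6 FPKM, with 5 higher and 2 lower in each comparison with Con, and the part of either list in the result was not tested.

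Of the mitochondrial chaperonin genes, Hspe1 fell in both comparisons with 6-OHG and Hspd1 was called in neither with all libraries, though the difference between the genes was not tested. Hspe1 (ENSMUSG00000073676, chr1:55088132-55091307) encodes the lid of the chaperonin and was at 24.2, 23.7, 22.8 and 26 FPKM in Con, 22, 22.1, 24.7, 21.5 and 23 in Mod and 17.6, 18.2, 17.4 and 17.6 in 6-OHG. The 4 treated libraries lay close together below all others, and Con and Mod overlapped. Hspe1 fell by 0.34 (SE 0.05, adjusted p = 0.00194) in 6-OHG against Mod and by 0.43 (SE 0.06, adjusted p = 0.000201) against Con, while Mod against Con was not called (-0.09, 95% interval -0.20 to 0.03, adjusted p = 0.249). The call in 6-OHG against Mod was lost with that dependence on length and GC removed and replicate number added to the fit (-0.24, adjusted p = 0.0922). Hspd1 (ENSMUSG00000025980, chr1:55077835-55088243), which encodes the barrel, was at 60.6 ± 5.97, 50.3 ± 1.69 and 53.7 ± 6.79 FPKM. It was not called in 6-OHG against Mod (0.09, 95% interval -0.09 to 0.27, adjusted p = 0.532) and fell in Mod against Con (-0.26, SE 0.08, adjusted p = 0.0392), with groups that overlapped. The fall was lost without any 1 of Con replicates 1, 3 and 4, the 5 Mod replicates and 6-OHG replicate 4, at adjusted p = 0.0511 to 0.101. In 6-OHG against Con, Hspd1 was called lower without Con replicate 2 (-0.24, adjusted p = 0.0497) or 6-OHG replicate 2 (-0.25, adjusted p = 0.0246), and not with all libraries. The level of Hspd1 over that of Hspe1 was 2.19 to 2.75 in Con, 2.07 to 2.43 in Mod and 2.79 to 3.48 in 6-OHG, so that all treated libraries had the higher ratios. The pair lies head to head, 7.60% of the exon bases of Hspe1 overlap Hspd1 on the other strand, and 6.64% and 16.1% of the 150-base stretches of Hspe1 and Hspd1 occur in another gene.

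Bag1, an exchange factor that ties HSP70 to the proteasome and to survival signalling, was at 56.7, 59.5, 49.6 and 61.1 FPKM in Con, 49.2, 50.3, 47.2, 47.5 and 54 in Mod and 39.9, 44.4, 42.6 and 39.9 in 6-OHG. The treated libraries lay below all others, and Con and Mod overlapped. Bag1 fell in 6-OHG against Con (-0.43, SE 0.07, adjusted p = 0.000802) and in 6-OHG against Mod (-0.25, SE 0.07, adjusted p = 0.0272). The second call was lost without Mod replicate 1, 2 or 5 or 6-OHG replicate 1 or 4 (adjusted p = 0.0507 to 0.0778), on rescaling to equal sums (-0.15, adjusted p = 0.137) and with that dependence on length and GC removed (-0.05, adjusted p = 0.688). Mod against Con was not called with all libraries (-0.19, 95% interval -0.33 to -0.04, adjusted p = 0.0614) and was called lower without Con replicate 3 or Mod replicate 5 (adjusted p = 0.0184 and 0.0418). Bag3, which directs HSP70 clients to autophagy, was not called with all libraries.

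**Figure D4:**
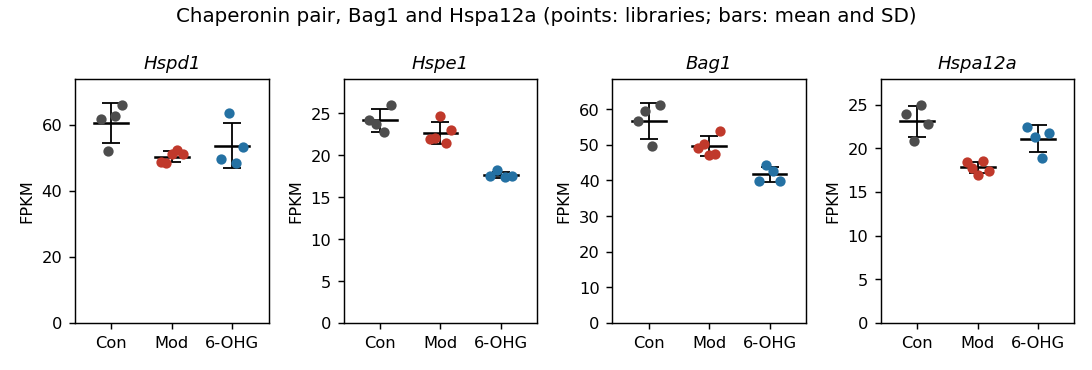
FPKM by library of Hspe1, Bag1 and Hspa12a, which with Cryab are the genes called in 6-OHG against Mod, and of Hspd1, the partner of Hspe1, with bars for the mean and SD (n = 4, 5 and 4). Hspe1 is at 17.4 to 18.2 FPKM in 6-OHG and at 21.5 FPKM or more in all other libraries, while the Hspd1 groups overlap.

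Of the 7 J-domain genes, Dnajb2 was called in both comparisons with Con. Dnajb2 (chr1:75236406-75245692), a neuronal J-domain gene that sends clients to the proteasome, was at 19.3, 19.4, 20.5 and 25.6 FPKM in Con, 15.8, 14.3, 16.1, 13.4 and 16.9 in Mod and 12.4, 15.8, 14.1 and 13.8 in 6-OHG. Con replicate 4 was the highest, and no altitude library reached Con. Dnajb2 fell by 0.44 (SE 0.09, adjusted p = 0.00534) in Mod and by 0.56 (SE 0.10, adjusted p = 0.00133) in 6-OHG against Con. Dnajb1, the inducible J-domain partner of HSP70 and a classical HSF1 target, was at 13.2, 11.5, 14.6 and 13 FPKM in Con, 14.2, 12, 11.8, 14.1 and 12.6 in Mod and 14.7, 13.9, 14.7 and 14.1 in 6-OHG. The Dnajb1 groups overlapped and none of its comparisons was called, with -0.02 (95% interval -0.17 to 0.14, adjusted p = 0.899) in Mod against Con and 0.13 (95% interval -0.04 to 0.29, adjusted p = 0.225) in 6-OHG against Con. Dnaja1, at 32.4 ± 1.88, 28.7 ± 1.79 and 28 ± 1.04 FPKM in the 3 groups, fell in 6-OHG against Con (-0.20, SE 0.06, adjusted p = 0.0236). Dnajb4, at 7.00 ± 0.199, 8.17 ± 0.545 and 8.56 ± 1.24 FPKM, rose (0.25, SE 0.08, adjusted p = 0.0408). The Dnaja1 call was lost without Con replicate 1 or 3 or 6-OHG replicate 1 or 3 (adjusted p = 0.0502 to 0.0693), and that of Dnajb4 without any 1 of 10 libraries (adjusted p = 0.0514 to 0.119), which were the 4 Con replicates, Mod replicates 1, 2 and 3 and 6-OHG replicates 1, 3 and 4. Rescaling to equal sums (-0.17, adjusted p = 0.144) and quantile normalization (-0.11, adjusted p = 0.152) also lost the Dnaja1 call. The Dnajb4 call was also lost with that dependence on length and GC removed (0.15, adjusted p = 0.197). In Mod against Con, Dnaja1 was called lower without Con replicate 2 or 4 or Mod replicate 5 (adjusted p = 0.0336 to 0.049), and Dnajb4 higher without 6-OHG replicate 2 (adjusted p = 0.0339). Dnaja2, Dnajb5 and Dnajb6 were not called with all libraries.

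In Hspb8, Bag3 and Dnajb5, Con replicate 4 and 6-OHG replicate 2 lay outside the range of the other 11 libraries. Hspb8, which works with Bag3, was at 6.92 FPKM in Con replicate 4 and 6.52 FPKM in 6-OHG replicate 2, against 2.02 to 4.29 FPKM in the other 11 libraries. Bag3 was at 4.07 and 4.46 FPKM in the same libraries and at 1.80 to 3.60 FPKM elsewhere. Without 6-OHG replicate 2, Bag3 was called lower in 6-OHG against Con (-0.43, adjusted p = 0.0418), against -0.21 (95% interval -0.64 to 0.21, adjusted p = 0.438) with all libraries. Dnajb5, a J-domain gene, was lowest in them, at 11.9 and 10.9 FPKM. The other 3 Con libraries were at 22.4 to 27.8 FPKM and the other altitude libraries at 13.7 to 17.6 FPKM, with no overlap. Its change with all libraries was -0.50 (95% interval -0.93 to -0.07, adjusted p = 0.0847) in Mod against Con and -0.43 (95% interval -0.88 to 0.02, adjusted p = 0.135) in 6-OHG against Con. Without Con replicate 4 it was called lower in both, at -0.75 (adjusted p = 0.00172) and -0.68 (adjusted p = 0.00324), and sample weights called both as well (-0.65 and -0.51, adjusted p = 0.00212 and 0.0171). Con replicate 4 and 6-OHG replicate 2 are the libraries with the lowest within-group correlations, and with the lowest striatal sum of their own group. The striatal sum of Con replicate 4 was 248 FPKM. Mod replicates 1 and 5 and 6-OHG replicate 3, among the other 11 libraries, had lower sums, at 150, 102 and 169 FPKM. The part of tissue makeup in these values was not tested. Over the 36 members, Con replicate 4 was the highest of its group for 16 and 6-OHG replicate 2 for 18, while Con replicate 2 was the lowest of its group for 21 and 6-OHG replicate 3 for 18.

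Of the heat shock factors, Hsf1 fell and Hsf2 rose in 6-OHG against Con. Hsf1 (ENSMUSG00000022556, chr15:76477422-76501913), the main activator of the heat shock genes, was at 4.79, 4.21, 4.06 and 4.37 FPKM in Con, 3.25, 3.52, 3.2, 3.1 and 3.38 in Mod and 2.88, 3.07, 2.87 and 2.93 in 6-OHG. Hsf2, a factor of development that can pair with HSF1, was at 2.98, 3.07, 3.18 and 2.91 FPKM in Con, 3.08, 2.94, 3.36, 3.43 and 3.34 in Mod and 3.57, 3.58, 3.91 and 3.91 in 6-OHG. For Hsf1 the 3 groups did not overlap, with Con highest and 6-OHG lowest, and for Hsf2 the 6-OHG libraries lay above all others. Hsf1 fell by 0.32 (SE 0.05, adjusted p = 0.00131) in Mod and by 0.44 (SE 0.06, adjusted p = 0.000189) in 6-OHG against Con, and 6-OHG against Mod was not called (-0.12, 95% interval -0.24 to -0.01, adjusted p = 0.146). Hsf2 rose in 6-OHG against Con (0.23, SE 0.06, adjusted p = 0.00899), and neither Mod against Con (0.07, 95% interval -0.05 to 0.19, adjusted p = 0.405) nor 6-OHG against Mod (0.17, 95% interval 0.05 to 0.28, adjusted p = 0.058) was called. The rise of Hsf2 was lost with that dependence on length and GC removed (0.12, adjusted p = 0.127). In 6-OHG against Mod, Hsf2 was called higher under 5 of 26 other settings, quantile normalization among them (0.17, adjusted p = 0.0451). HSF1 is mainly controlled as a protein, which these data do not measure.

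Genes of the same machinery outside the set were compared by count. Over all genes tested, 14% rose and 9.81% fell in Mod against Con, and 6.98% rose and 8.35% fell in 6-OHG against Mod. In 6-OHG against Con 16.3% rose and 14.4% fell. The counts of each list that follows are to be read beside these shares, and several lie near them. Of 14 other HSP90 cochaperones, 2 rose and 0 fell in Mod against Con, 1 rose and 6 fell in 6-OHG against Mod, and 4 rose and 9 fell in 6-OHG against Con. Fkbp5, an HSP90 cochaperone and a classical glucocorticoid target, rose from 2.77 ± 0.0855 FPKM in Con to 7.66 ± 1.07 in Mod (1.19, adjusted p = 1.99e-05) and was at 7.63 ± 1.58 in 6-OHG (1.18 against Con, adjusted p = 4.15e-05). In 6-OHG against Mod the smallest p-values were those of Pih1d1 (-0.47, adjusted p = 0.00181) and Fkbp8 (-0.33, adjusted p = 0.0021). The median change of this list was 0.03, -0.14 and -0.21 in the 3 comparisons, against 0.01, -0.02 and 0.00 over all genes.

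Of 10 other HSP70 cochaperones, 0 rose and 2 fell in Mod against Con, namely Tomm34 (-0.40, adjusted p = 0.000508), which guides proteins to mitochondria, and St13 (-0.26, adjusted p = 0.0171), which steadies HSP70 on its client. In 6-OHG against Mod 1 rose and 2 fell, with the ubiquitin ligase gene Stub1 at -0.37 (adjusted p = 0.0082) and Bag4 at 0.28 (adjusted p = 0.0176), and in 6-OHG against Con 1 rose and 3 fell. Of 27 other J-domain genes tested, out of 28 listed, 0 rose and 2 fell, 4 rose and 3 fell, and 4 rose and 4 fell in the same order. Dnaja4 was the J-domain gene with the smallest p in Mod against Con (-0.37, adjusted p = 0.0181). The median changes of these HSP70 cochaperone and J-domain lists lay between -0.10 and 0.04, while those of the 36 members were -0.17, -0.03 and -0.16.

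The cytosolic chaperonin TRiC, which folds actin and tubulin, had 1 of 8 subunit genes higher and 0 lower in Mod against Con, Cct2 (0.25, adjusted p = 0.0188), 0 called in 6-OHG against Mod by limma (0 also at an unadjusted p under 0.05), and 1 higher and 1 lower in 6-OHG against Con. Of the 6 subunit genes of prefoldin, which hands clients to TRiC, Pfdn6 rose in Mod against Con (0.30, adjusted p = 0.00291), 2 fell in 6-OHG against Mod and 0 were called by limma in 6-OHG against Con (0 at an unadjusted p under 0.05). In the endoplasmic reticulum 10 of 15 chaperone genes fell and 2 rose in Mod against Con, led by Calr (-0.61, adjusted p = 3.05e-05) and Dnajc10 (0.37, adjusted p = 0.000432), and 12 fell and 2 rose in 6-OHG against Con. In 6-OHG against Mod 2 of these fell and 1 rose. Cirbp and Rbm3, RNA-binding proteins that rise when cells cool, both rose in Mod against Con (0.95 and 1.28, adjusted p = 0.000223 and 3.82e-08) and in 6-OHG against Con (0.84 and 1.18), and neither was called in 6-OHG against Mod. Body temperature is not in the labels, and its part in the result was not tested.

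**Figure D5:**
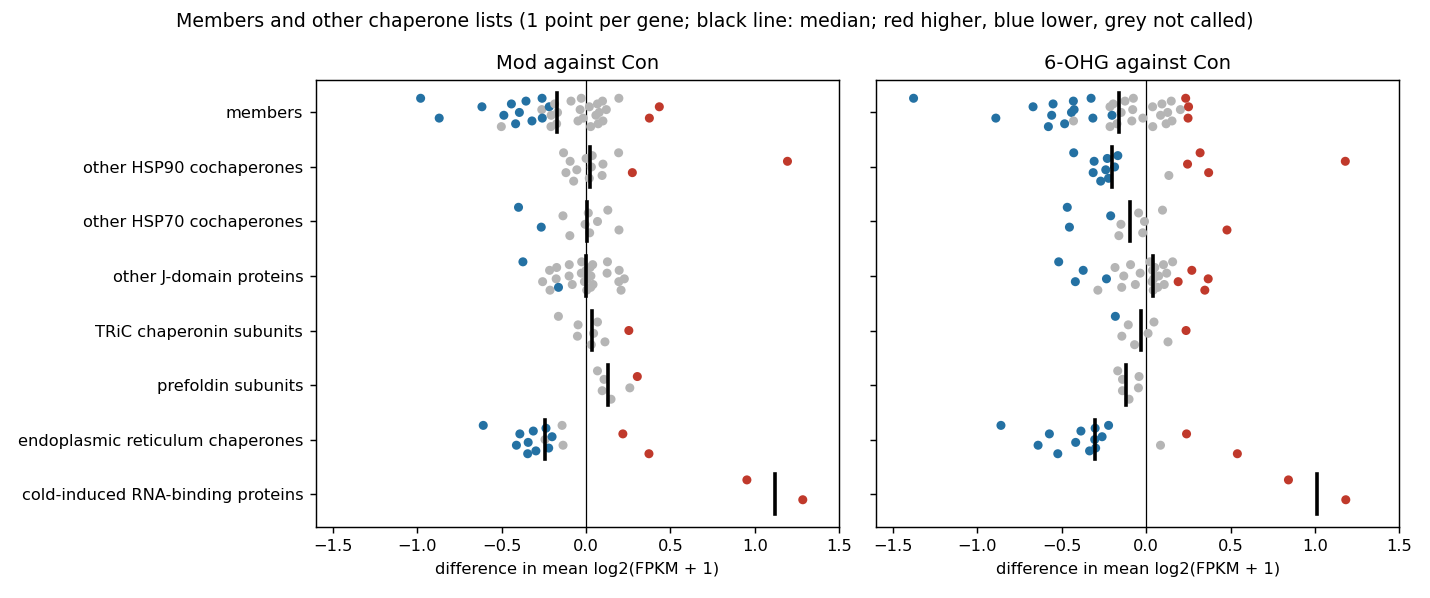
Difference in mean log2(FPKM + 1) of each gene (point) in the 36-gene set and 7 other lists of chaperones and cold-induced genes, for Mod and 6-OHG against Con, with the median of each list as a black line. The member median is -0.17 on the left and -0.16 on the right, and that of the endoplasmic reticulum list -0.24 and -0.30.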

How the data were processed

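Brain RNA of 13 libraries was extracted with Trizol and sequenced in 150-base pairs on a NovaSeq instrument, per the labels' protocols. The deposited table holds FPKM values made by the authors, with 1 column per library and 0 columns unused. The submitters' processing notes name, without roles, HISAT2 2.2.1 with StringTie 2.1.6, DESeq2, edgeR, featureCounts 1.5.0-p3, cutadapt 1.9 and FastQC, and the builds GRCm38 and mm10. The annotation release, strand setting and filters are not given in the sources used here. Of low values, 10.5% to 12.7% lay within 0.02 of a whole multiple of an estimated fragment's worth. That estimate used exon lengths of GENCODE M21, which may not be the authors' release, so it does not settle the depth. Depth is therefore unknown and no counting error is given.

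Values were fitted as log2(FPKM + 1) with limma 3.58.1 under R 4.3.3, a mean-variance trend and 1 mean per group, for 13905 genes that averaged 1 FPKM or more, in all 13 libraries. Benjamini-Hochberg adjustment ran over these genes, and calls were made under 0.05. The fit was tested on simulated data. Coordinates and exon lengths came from GENCODE M21 and promoter windows from RefSeq on GRCm38.p6. Members, lists and settings were chosen with earlier results of these data known. Values per library are given for the 14 called members with the smallest adjusted p and for Hspa8, Hsp90ab1, Hsp90aa1, Hspa1a, Hspa1b, Hsf1 and Dnajb1, with the library values of Hspb8, Bag3 and Dnajb5 added after they were seen. Of each other list up to 2 genes with the smallest p per comparison are named. Alternatives were 27 other settings (pseudocount, filter, scaling, moderation, weights, groups fitted, replicate block, length and GC, libraries left out) and an adjusted p under 0.01.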

Additional observations from a re-analysis of the deposited data

Results flagged for a closer look

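In the 108 pairs of a member and a group, the library farthest from the others was checked against the whole range of its group, and 3 pairs had a library set apart beyond the 95% critical value (0.829 for 4 libraries, 0.71 for 5). Chance alone sets about 1 in 20 groups apart. Hspa13, which encodes a chaperone of the endoplasmic reticulum, was at 5.32 FPKM in Con replicate 2 and at 6.84 to 7.01 FPKM in the other Con libraries. Hsp90ab1 was at 412 FPKM in 6-OHG replicate 3 and at 447 to 451 FPKM in the other treated libraries. Hspb6 was at 2.02 FPKM in 6-OHG replicate 2 and at 1.27 to 1.35 FPKM in the others.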

How the results depend on the processing

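The counts of falls, 12 for Mod and 13 for 6-OHG against Con, stayed within 1.5 times under the settings run, at 9 to 14 and 11 to 16 with each library left out in turn. The 2 rises in Mod against Con became 1 with no filter, a filter at 5 FPKM (27 members tested), equal sums, quantile normalization, the replicate block, the length and GC trend removed with the block, or an adjusted p under 0.01, and were 1 to 3 without single libraries. In 6-OHG against Mod the 1 rise became 3 at equal sums with or without mitochondrial genes, 2 with median-of-ratios scaling or sample weights, 4 with quantile normalization, and 0 with no filter, the block, the length and GC trend removed with or without the block, or an adjusted p under 0.01, and was 0 to 1 without single libraries. The 3 falls there became 1 with no filter, the block or an adjusted p under 0.01, 0 with the length and GC trend removed and the block, and 1 to 4 without single libraries. The 3 rises in 6-OHG against Con became 1 with only the compared groups fitted, the length and GC trend removed with or without the block, or an adjusted p under 0.01, and were 1 to 3 without single libraries. The median member change in 6-OHG against Mod, -0.03, turned to 0.0068 with a filter at 5 FPKM, 0.0652 and 0.0485 at equal sums with and without mitochondrial genes, 0.0264 with quantile normalization, 0.004 and 0.0162 with the length and GC trend removed without and with the block, and 0.0139 without 6-OHG replicate 3 (-0.0543 to 0.0139 over the left-out libraries). The cause was not tested. No call of a single member reversed. Deviations of same-numbered libraries correlated at -0.483 to 0.346, and those of differently numbered libraries of 2 groups at -0.492 to 0.651. These ranges gave no sign of pairing by replicate number, but they cannot exclude a shared batch. With the replicate block, calls over all genes in 6-OHG against Mod went from 970 higher and 1161 lower to 371 and 475. With the length and GC trend removed they were 505 and 490. With that trend removed and the block they were 49 and 25, or 0.353% and 0.180% of genes.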
